A study of Mus musculus with 22 samples.

Results

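CpG methylation was examined in the genes of the ErbB receptors (Egfr, Erbb2, Erbb3 and Erbb4) and of 6 of their ligands (Areg, Nrg1, Nrg2, Tgfa, Hbegf and Btc) in mammary tissue of PyMT mice and FVB controls. The members were the CpG cytosines that were covered in every library and that lay inside 1 of these 10 genes or within 2 kb of a transcription start site (TSS) of a curated RefSeq transcript. There were 957 such positions of the 1140618 covered in all 22 libraries, with the strands kept apart, and 654 of the 957 lay in promoters (within 2 kb of a TSS) and 303 in gene bodies. Most promoters of these genes were close to unmethylated in both strains, and the larger differences lay in short stretches downstream of the start sites. Erbb3 was lower in PyMT by 41.9 percentage points in an early exon, and Nrg2 had stretches that were lower and others that were higher. Hbegf was lower by 40.7 points in the first intron, and a stretch of Nrg1 was higher by 23.5 points. The Hbegf and Nrg1 stretches lay within 2 kb of a TSS and so count as promoter positions.

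The ErbB receptors are tyrosine kinases of the cell surface that pair with each other once a ligand is bound, and they pass signals to the Ras-MAPK and PI3K-Akt cascades. Ligands of the EGF type (Areg, Tgfa, Hbegf, Btc) are made as membrane proteins and shed by proteases, whereas the neuregulins (Nrg1, Nrg2) bind Erbb3 and Erbb4. In the mammary gland the family governs ductal growth and lactation, and amplification of the human ERBB2 gene defines a class of breast cancer. Methylation at a TSS is in general linked with silencing, while bodies of active genes are usually methylated.

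PyMT mice carry the polyoma virus middle T antigen in 1 copy, under the MMTV promoter, which is active mainly in mammary epithelium, and all mice were females of the FVB background. PyMT glands were taken at hyperplasia (week 6, n = 2), adenoma/MIN (mammary intraepithelial neoplasia, week 8, n = 3), early carcinoma (week 10, n = 3) and late carcinoma with lung metastasis (week 12, n = 2). Age-matched FVB glands without the transgene served as controls (n = 3 at each week). The tissue was bulk, so a change in the share of a cell type and a change within a cell type cannot be told apart in any value below.

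DNA was measured by enhanced reduced representation bisulfite sequencing (ERRBS), which reads CpG-rich fragments, so much of each gene was not covered. The libraries had a mean coverage of 60.2 to 79.2 reads per position, and the member positions a mean of 79.9 reads. Promoters of cell type markers were compared as well, against 3.83% of all promoters higher and 6.30% lower in PyMT by the limma rule given below. The mean promoter methylation of 7 luminal and general epithelial markers was 5.22 to 7.81% in the PyMT libraries and 11.5 to 15.9% in the FVB libraries, with no overlap, and 2 of the 7 promoters were lower in PyMT (Elf5, which specifies alveolar cells, at 9.83% against 36.5%, and Krt18, a keratin of simple epithelia, at 15.6% against 31.4%). For 6 adipocyte markers the ranges were 37.5 to 43.2% and 45.5 to 50.1%, with 3 lower (Cfd, Cidec and Lep). The ranges overlapped for the other lists. They were 24.3 to 37.9% in PyMT and 34.4 to 38.8% in FVB for 2 leukocyte promoters (1 lower), 54.9 to 64.4% and 56.1 to 76.6% for the 1 basal promoter (Krt5, lower), and 31.1 to 37.0% and 31.1 to 38.8% for 3 endothelial promoters (Cdh5 lower, Pecam1 higher). The defining marker nearest to 0 was the T cell kinase gene Lck, at 0.0080% and 0.133%. The part of cell composition in the differences below was not tested.

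At single positions the share of changed cytosines among the members was below that of the genome at every stage. A cytosine was taken as differentially methylated (a DMC) where the pooled reads of both strains differed by 10 points or more and a logistic regression of reads gave a q-value under 0.01, a test in which reads and not mice are the units. Of the 957 positions, 17 were hyper-DMCs at hyperplasia (1.78%, against 2.62% of all positions), 20 at adenoma/MIN (2.09% against 3.20%), 24 at early carcinoma (2.51% against 4.39%) and 21 at late carcinoma (2.19% against 4.44%). Hypo-DMCs numbered 36 at hyperplasia (3.76%, against 6.01% of all positions), 41 at adenoma/MIN (4.28% against 7.10%), 40 at early carcinoma (4.18% against 8.42%) and 42 at late carcinoma (4.39% against 8.53%). The same held in promoters and in bodies. At late carcinoma 7 of the 654 promoter positions were hyper-DMCs (1.07%, against 2.29% of promoter positions of all genes) and 5 were hypo-DMCs (0.765% against 1.34%). Of the 303 body positions, 14 were hyper-DMCs (4.62% against 9.05%) and 37 hypo-DMCs (12.2% against 17.4%). The body positions include CpG-dense Nrg2 stretches of 47 and 62 positions, at 0.172 and 0.544% in FVB. A loss of 10 points was not possible there, and the shares without such positions were not counted, so the body comparison depends on them. Neighbouring positions share reads, so these shares are descriptions and the difference from the genome was not tested. With a correction for overdispersion the counts in the order of the stages were 5, 8, 9 and 11 hyper-DMCs and 13, 15, 30 and 36 hypo-DMCs. The shares of all positions with this correction were not counted, so the comparison with the genome covers the uncorrected test only.

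At 850 of the 957 positions no stage gave a DMC, and the other 107 were DMCs at 1 stage or more (11.2%, against 20.3% of all positions). At all 4 stages 3 positions were hyper-DMCs (0.313% against 1.05%) and 27 were hypo-DMCs (2.82% against 3.27%). Of these 27, 14 lay in Nrg2, 8 in Erbb3, 4 in Hbegf and 1 in Erbb2, genes that held 248, 108, 21 and 107 of the 957 positions. Of the 3, 2 lay in Nrg1, which held 139 positions, and 1 in Nrg2. Egfr had no DMC at any of its 68 positions, and the 99 promoter positions of Erbb4 and the 81 of Erbb3 had none either.

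To use mice as the units, the positions were joined into regions (gaps of at most 100 bases, at least 3 positions), and each region was tested with limma over all 84560 regions of the genome. A region was called at a Benjamini-Hochberg adjusted p under 0.05 and a difference of at least 5 points. The 10 genes held 53 regions. Over all weeks 5 were higher in PyMT (9.43%, against 10.5% of all regions) and 8 were lower (15.1%, against 25.5%). By stage 9 were called at hyperplasia (17.0%, against 13.5% of all regions), 8 at adenoma/MIN (15.1% against 21.1%), 11 at early carcinoma (20.8% against 26.6%) and 10 at late carcinoma (18.9% against 26.9%). The 9 at hyperplasia come from only 2 PyMT mice of that week, and their number was not stable. When the replicate 3 libraries of FVB were left out at every week, 4 regions were called at hyperplasia.

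Whether a region was called went with its level in the controls. Of 24 regions under 10% in FVB, 1 was called over all weeks (4.17%, against 3.56% of all such regions). The highest of the 24 was at 4.44% in FVB, so the rule of 5 points allowed none of them to be called lower. Of 16 regions from 10% to under 80%, 9 were called (56.2% against 64.9%), and of 13 regions at 80% or more, 3 were called (23.1% against 36.6%). The low class included the CpG-dense starts of the genes, and the plot of difference against control level shows them as a cluster at the origin.

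**Figure D1:**
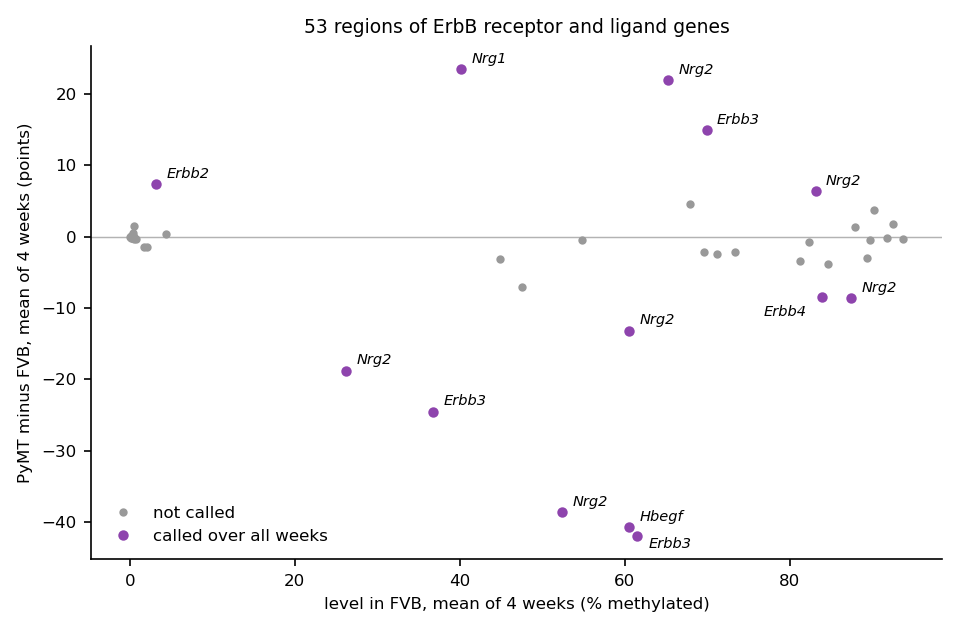
Each point is 1 of the 53 regions, with its mean level in FVB over the 4 weeks (% methylated) on the horizontal axis and the difference PyMT minus FVB (points) on the vertical axis. The 13 called regions (purple, named) lie between -41.9 and 23.5 points, and regions near 0% in FVB stay near a difference of 0 except 1 of Erbb2.

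The receptor promoters were nearly free of methylation in both strains. Egfr, the receptor of EGF, TGF-alpha and amphiregulin, had promoter levels with a lowest, median and highest library of 0.106, 0.167 and 0.366% in PyMT and 0.167, 0.425 and 0.586% in FVB. The difference of -0.19 points passed the test (limma adjusted p = 0.00117) but was far below 5 points, and the groups overlapped. Erbb4, a neuregulin receptor that acts in lactation, stood at 0.338% ± 0.177 (SD, n = 10) in PyMT and 0.438% ± 0.109 (SD, n = 12) in FVB, a difference that did not pass (limma adjusted p = 0.254).

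Erbb2, the receptor with no known ligand that serves as the partner of the others, had a promoter at 0.691% ± 0.228 (SD, n = 10) in PyMT and 0.364% ± 0.164 (SD, n = 12) in FVB. The Erbb2 difference did not pass (limma adjusted p = 0.239), while the exact permutation p within week was 0.00118. The 250 bases before its start site (chr11:98412234-98412483, plus strand, RefSeq GRCm38.p6) show what such a promoter looks like. CpGs are in capitals, and the same stretch of Btc (chr5:91402995-91403244, minus strand) is set beside it as the CpG-poor member.

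Erbb2 promoter: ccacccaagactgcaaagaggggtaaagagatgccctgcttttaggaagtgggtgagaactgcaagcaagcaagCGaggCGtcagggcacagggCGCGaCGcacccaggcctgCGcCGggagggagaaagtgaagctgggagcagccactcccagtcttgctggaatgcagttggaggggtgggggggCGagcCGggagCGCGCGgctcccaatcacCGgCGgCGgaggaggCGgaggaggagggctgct
Btc promoter: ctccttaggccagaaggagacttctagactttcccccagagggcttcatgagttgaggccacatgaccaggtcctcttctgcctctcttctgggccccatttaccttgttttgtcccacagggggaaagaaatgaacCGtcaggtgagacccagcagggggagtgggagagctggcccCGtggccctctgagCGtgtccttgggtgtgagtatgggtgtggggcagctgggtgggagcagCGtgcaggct

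The Erbb2 stretch holds 16 CpGs, a number that 25.4% of the 32851 promoters in the same table reach or exceed, and the Btc stretch holds 4, which 62.2% reach or exceed. The counts were 11 for Egfr, 12 for Erbb4, 15 for Areg and 19 for Tgfa, against a median of 6 over all promoters. Erbb3, Nrg1, Nrg2 and Hbegf had no entry.

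The exception among low regions was in the first intron of Erbb2, 1136 bases after the start. The region (chr11:98413600-98413641, 4 positions, mean coverage 33.5 reads) is shown on the plus strand of GRCm38 with its CpGs in capitals.

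Erbb2 intron: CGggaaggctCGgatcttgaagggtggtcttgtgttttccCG

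It rose in PyMT. Its methylation had a lowest, median and highest library of 6.11, 10.9 and 18.1% in PyMT and of 0, 3.21 and 8.90% in FVB. The ranges overlapped over all weeks but not at 3 of the 4 weeks. The difference over all weeks was 7.34 points (limma adjusted p = 2.37e-04, exact permutation p within week = 1.25e-04), and the region was called at adenoma/MIN (9.43 points) and early carcinoma (10.7 points). At late carcinoma the difference was 5.90 points and did not pass (limma adjusted p = 0.0801). The other 77 positions of the Erbb2 promoter formed a region at 0.181% in PyMT and 0.219% in FVB.

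Erbb3, a receptor with a weak kinase that signals through its partners, kept an unmethylated start and changed further inside. Its 2 regions around the TSS, of 13 and 64 positions, were at 0.187 and 0.157% in PyMT and 0.288 and 0.216% in FVB. A region further upstream was at 40.5% in PyMT and 47.5% in FVB and did not pass (limma adjusted p = 0.0968). The largest difference of any member region lay 4562 bases after the TSS in a coding exon (chr10:128585029-128585117, 5 positions at 4 CpGs, mean coverage 86.8 reads). A neighbouring intronic region lay 4834 bases after the TSS (chr10:128584742-128584860, 5 positions at 3 CpGs), and the region 11195 bases after it (chr10:128578336-128578544, 8 positions, 7 of them coding) changed the other way. All 3 are printed on the plus strand of GRCm38, opposite to the gene, with CpGs in capitals.

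Erbb3 exon, lower in PyMT: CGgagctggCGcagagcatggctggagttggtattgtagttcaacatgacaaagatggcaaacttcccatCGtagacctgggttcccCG
Erbb3 intron, lower in PyMT: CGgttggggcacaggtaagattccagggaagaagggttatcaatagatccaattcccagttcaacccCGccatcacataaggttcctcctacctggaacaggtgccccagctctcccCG
Erbb3 exon and intron edge, higher in PyMT: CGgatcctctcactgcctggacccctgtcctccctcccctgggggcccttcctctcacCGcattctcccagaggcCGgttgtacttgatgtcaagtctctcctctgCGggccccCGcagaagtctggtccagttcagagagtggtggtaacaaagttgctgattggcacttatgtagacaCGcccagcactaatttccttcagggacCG

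The first Erbb3 exon region fell at every stage. PyMT libraries measured 15.4 and 26.2% at hyperplasia, 17.6, 34.4 and 17.9% at adenoma/MIN, 11.2, 16.0 and 17.4% at early carcinoma, and 13.8 and 24.4% at late carcinoma. FVB libraries measured 53.1, 46.9 and 71.3% at week 6, 45.7, 69.2 and 59.4% at week 8, 60.1, 72.7 and 62.7% at week 10, and 72.5, 55.0 and 68.8% at week 12. Every PyMT library was below every FVB library. The difference over all weeks was -41.9 points (limma adjusted p = 1.91e-08), and the exact permutation p within week was 2.50e-05, the smallest that the 40000 arrangements allow. By stage it was -36.3, -34.8, -50.3 and -46.3 points, with limma adjusted p of 0.00823, 0.00167, 3.91e-05 and 1.47e-04.

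All CpGs of the stretch took part. At the first CpG, read on both strands, the means were 19.8% ± 7.63 and 12.8% ± 8.38 (SD, n = 10) in PyMT and 61.1% ± 10.1 and 60.3% ± 15.6 (SD, n = 12) in FVB. The CpG at base 10 was the most methylated in both strains, at 29.6% ± 6.60 and 72.8% ± 10.7. The last CpG, at base 89 on the other strand, stood at 18.8% ± 10.3 and 60.3% ± 16.2, and all 5 positions were hypo-DMCs at all 4 stages.

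The Erbb3 intron region showed the same direction. Its lowest, median and highest libraries were 4.64, 13.3 and 18.3% in PyMT and 29.8, 36.2 and 42.7% in FVB. The groups did not overlap, and the difference was -24.5 points (limma adjusted p = 2.12e-07, exact permutation p = 2.50e-05). Within it the CpG at base 1 was low in both strains, at 6.44% ± 4.27 and 15.9% ± 5.15, and the CpG at its end was at 17.7% ± 10.5 and 56.7% ± 14.2. The start of an annotated microRNA gene, Mir6917, lies within 2 kb of both regions.

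The downstream Erbb3 region rose. Its libraries had a lowest, median and highest value of 80.3, 85.2 and 89.5% in PyMT and 58.8, 70.0 and 80.3% in FVB. The highest FVB library slightly exceeded the lowest PyMT library, while within each week the strains were apart. The difference was 14.9 points (limma adjusted p = 1.72e-07, exact permutation p = 5.00e-05) and was called at all stages, from 10.6 points at hyperplasia to 17.8 at early carcinoma. One more region (chr10:128572416-128572538, 17158 bases after the TSS) was called at early carcinoma only, at 5.23 points (limma adjusted p = 0.0419). Averaged over its 27 body positions, Erbb3 was at 58.6% ± 1.58 (SD, n = 10) in PyMT and 66.2% ± 2.84 (SD, n = 12) in FVB. Erbb3 was the only 1 of the 8 bodies tested that was called (-7.68 points, limma adjusted p = 4.89e-05), against 10.3% of all bodies called higher and 32.1% called lower. The Erbb2 body was lower by less than 5 points (77.7% against 80.3%, limma adjusted p = 6.17e-04).

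**Figure D2:**
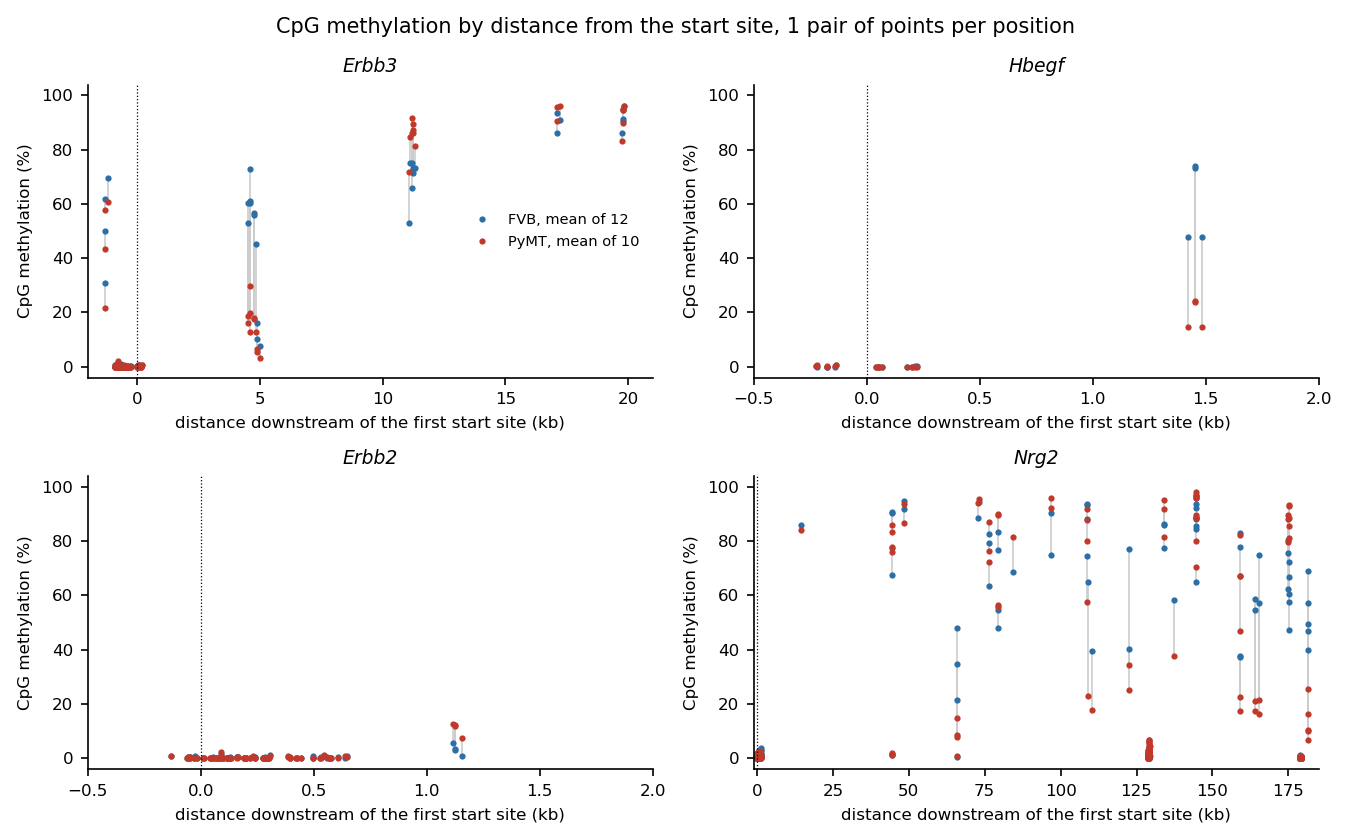
Each pair of points is 1 CpG position, with the mean of the 10 PyMT libraries (red) and of the 12 FVB libraries (blue) in % methylated against the distance from the first start site in kb, for Erbb3, Hbegf, Erbb2 and Nrg2; grey lines join the pair. Positions around the start sites (dotted line) lie near 0% in both, and the gaps open 4.6 kb into Erbb3, 1.5 kb into Hbegf and 1.1 kb into Erbb2.

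In Erbb4 the promoter positions stayed near 0, and 1 region of its body was called. The region (chr1:68040057-68040101, 3 coding positions, mean coverage 32.7 reads) lies 1067980 bases after the TSS. PyMT libraries measured 80.6 and 84.3% at hyperplasia, 90.4, 78.8 and 69.0% at adenoma/MIN, 75.3, 76.6 and 76.5% at early carcinoma, and 54.1 and 73.9% at late carcinoma. FVB libraries had a lowest, median and highest value of 72.8, 85.2 and 93.4%. The strains overlapped at all weeks but 1, and the difference of -8.46 points over all weeks was the weakest call (limma adjusted p = 0.0236). It was largest at late carcinoma, at -23.7 points (limma adjusted p = 0.00810). The difference over all weeks missed the threshold in the exact permutation test (adjusted p = 0.0632). It also missed it without FVB replicate 1 or FVB replicate 2, each left out at every week. PyMT replicate numbers were left out in the same way, which left 1 mouse at some weeks. Over all these refits the difference stayed between -9.67 and -6.80 points.

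Among the ligands, Hbegf (heparin-binding EGF-like growth factor, a ligand of Egfr and Erbb4) had the only called promoter. Its mean over 18 positions had a lowest, median and highest library of 2.53, 3.99 and 7.02% in PyMT and 9.70, 13.8 and 16.4% in FVB. The groups did not overlap, and the difference was -9.03 points (limma adjusted p = 7.07e-08, exact permutation p = 2.50e-05). Of all promoters 6.30% were called lower and 3.83% higher, and of the 10 member promoters 1 was lower and 0 were higher. No other member promoter differed by 5 points or more, and 5 of the 10 had a limma adjusted p under 0.05. The share of all promoters under that adjusted p alone was not counted.

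The whole Hbegf difference came from 4 positions at 3 CpGs in the first intron, 1451 bases after the TSS (chr18:36514323-36514385, mean coverage 83.2 reads). PyMT libraries measured 19.2 and 31.6% at hyperplasia, 23.6, 22.6 and 13.5% at adenoma/MIN, 16.7, 12.3 and 14.7% at early carcinoma, and 10.6 and 28.6% at late carcinoma. FVB libraries measured 42.8, 49.1 and 62.6% at week 6, 48.6, 73.8 and 61.5% at week 8, 61.2, 70.2 and 57.5% at week 10, and 70.5, 61.4 and 67.9% at week 12. Every PyMT library was again below every FVB library. The difference was -40.7 points over all weeks (limma adjusted p = 7.69e-09), and -26.1, -41.4, -48.4 and -47.0 points by stage.

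At the start site itself Hbegf was unmethylated. The 3 regions nearest to the TSS, the farthest centred 199 bases after it, were at 0 to 0.312% in PyMT and 0 to 0.164% in FVB. With promoters cut to 500 bases on each side, the Hbegf difference was 0.031 points (limma adjusted p = 0.983). The central CpG of the intronic region, read on both strands, was at 23.8% ± 10.6 and 24.4% ± 9.04 (SD, n = 10) in PyMT and 73.1 and 73.8% in FVB, and the CpGs on either side were lower in both strains (14.7 and 14.5% against 47.8 and 47.7%).

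Nrg1, a ligand of Erbb3 and Erbb4 with several start sites, gained methylation. The CpG-dense start of its longest transcript held a region of 103 positions at 0.544% in PyMT and 0.405% in FVB (limma adjusted p = 0.148). Most of its curated transcripts are shorter and begin at an internal start site. A region 688 bases downstream of that site, in the first exon (chr8:31918105-31918206), rose. It held 4 positions, 3 of them coding, with a mean coverage of 102 reads. PyMT libraries measured 57.7 and 54.0% at hyperplasia, 63.6, 67.0 and 64.7% at adenoma/MIN, 66.5, 63.5 and 64.3% at early carcinoma, and 69.2 and 68.8% at late carcinoma. FVB libraries measured 38.2, 46.1 and 40.1% at week 6, 43.5, 47.4 and 43.8% at week 8, 39.1, 38.6 and 35.2% at week 10, and 30.4, 42.9 and 36.5% at week 12.

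The Nrg1 groups did not overlap. The difference was 23.5 points over all weeks (limma adjusted p = 3.07e-09, exact permutation p = 2.50e-05). By stage it was 14.4, 20.2, 27.1 and 32.4 points, each called. The excess of the malignant over the premalignant weeks in PyMT relative to FVB was 12.5 points, with a limma p of 0.00422 unadjusted and 0.279 adjusted, so it did not pass. The 4 positions rose together, the largest gain being from 36.6% ± 9.96 (SD, n = 12) to 68.1% ± 10.6 (SD, n = 10) at the last. The Nrg1 body, over 18 positions, was at 60.3% in both strains.

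Nrg2, the other neuregulin gene among the members, held 177 of the 303 body positions and 14 of the 53 regions. It held 6 of the 14 regions called in any comparison, and the share of all regions called in any comparison was not counted. The promoter was at 0.432% ± 0.117 (SD, n = 10) in PyMT and 0.693% ± 0.219 (SD, n = 12) in FVB, and the difference of -0.26 points passed the test (limma adjusted p = 0.0144) but not the 5 points. The largest change lay at the far end of the gene, in the UTR of the last exon, 181483 bases after the TSS (chr18:36015847-36015969, 5 positions). Its lowest, median and highest libraries were 5.71, 14.4 and 21.3% in PyMT and 39.8, 51.1 and 61.9% in FVB, with no overlap. The difference was -38.6 points (limma adjusted p = 1.38e-09), and all 5 positions were hypo-DMCs at all 4 stages.

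About 6 kb nearer to the start, a region of 8 coding and intronic positions (chr18:36022234-36022398) went the other way. Its libraries had a lowest, median and highest value of 81.1, 88.1 and 90.3% in PyMT and 58.0, 64.2 and 78.7% in FVB. There was no overlap, and the means over the weeks were 87.3% and 65.3% (limma adjusted p = 1.98e-07). The mean over the Nrg2 body, in which both shifts and nearly unmethylated CpG-dense stretches enter, was 26.3% in FVB and 24.6% in PyMT. The difference of -1.70 points did not pass (limma adjusted p = 0.0602), while the exact permutation p within week was 2.50e-05.

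Of the other Nrg2 regions called, an intronic one 65968 bases after the TSS (chr18:36131400-36131446) fell from a median of 26.6% to 8.26% (difference over all weeks -18.8 points, limma adjusted p = 5.27e-06). A partly coding region (chr18:36038220-36038316) fell from a median of 61.5% to 48.0% (-13.2 points, limma adjusted p = 4.63e-04). In both, the strains overlapped over all weeks but were apart within each week. The other pair, between 36063419 and 36063491 and between 36088546 and 36088649, differed by 6.37 and -8.58 points from FVB levels of 83.1 and 87.4%.

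An intronic CpG-dense stretch of Nrg2 was close to unmethylated and highest in the late carcinoma libraries. The region (chr18:36068060-36068665, 62 positions, mean coverage 112 reads) measured 0.761 to 1.60% in the 8 PyMT libraries of weeks 6 to 10 and 0.344 to 0.773% in FVB. The late carcinoma libraries measured 2.76 and 7.01%. The difference over all weeks of 1.53 points passed the test (limma adjusted p = 8.36e-05) but not the 5 points, and the change between premalignant and malignant weeks in PyMT did not pass (2.05 points, limma adjusted p = 0.187). A stretch of 47 positions further on stayed at 0.178% in PyMT and 0.172% in FVB.

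**Figure D3:**
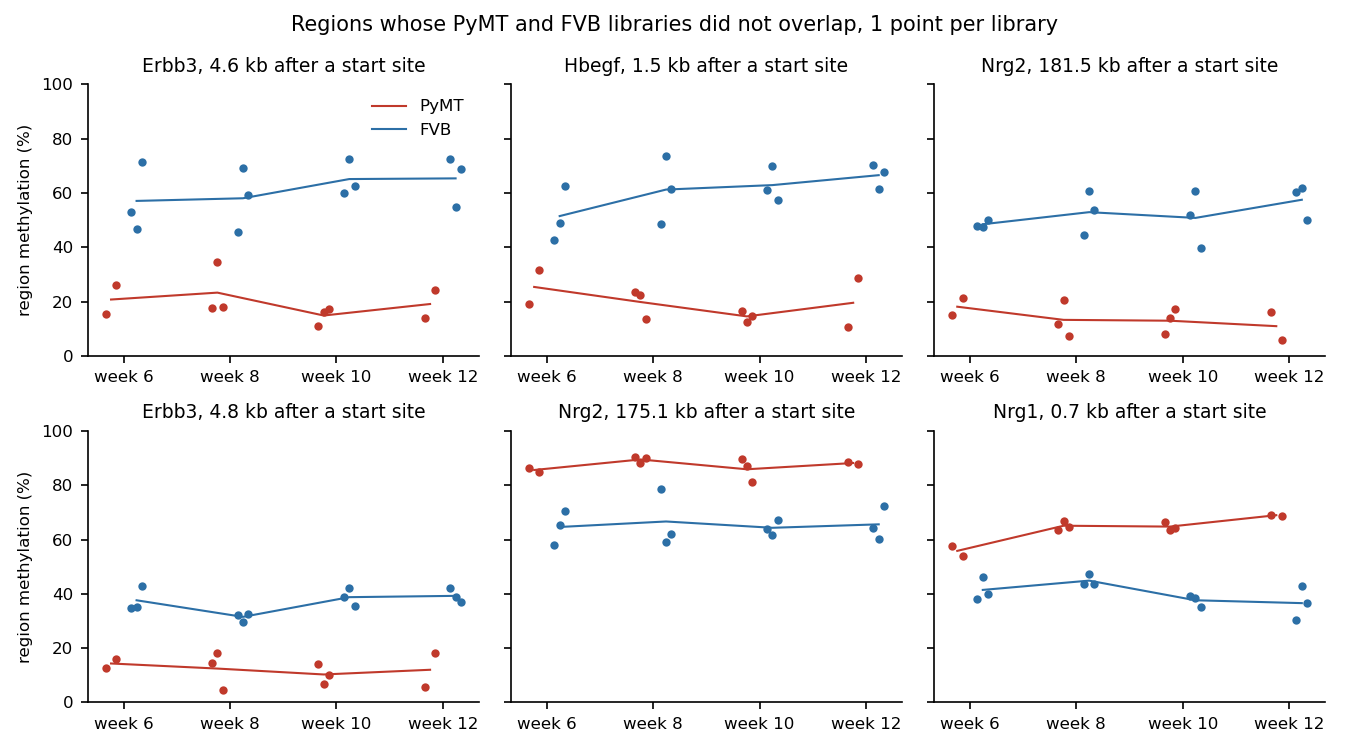
Each panel is 1 of the 6 regions whose PyMT (red) and FVB (blue) libraries did not overlap, with 1 point per library, lines through the group means, week on the horizontal axis and region methylation in % on the vertical axis. The share of all regions of the genome without overlap was not counted, so the 6 are a description. The strains were apart from week 6 on, with PyMT lower in 4 regions and higher in the Nrg1 region and 1 Nrg2 region.

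The remaining ligands changed little. Areg (amphiregulin, the ligand that mediates ductal outgrowth downstream of oestrogen) had a start region of 30 positions at 0.289% in PyMT and 0.331% in FVB, and the promoter as a whole stood at 8.19% ± 0.690 (SD, n = 10) and 8.48% ± 0.551 (SD, n = 12). That level came from 4 coding positions 1437 bases after the TSS, which measured 60.7 to 64.9% in the 5 PyMT libraries of weeks 6 and 8 and 68.1 to 79.0% in the 5 of weeks 10 and 12. The increase of 9.86 points between them did not pass (limma adjusted p = 0.135, limma unadjusted p = 0.00192). It passed with limma on the percent scale (adjusted p = 0.0397). In FVB the weekly means were 67.3, 67.6, 72.7 and 70.8%.

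Tgfa (transforming growth factor alpha, a ligand of Egfr) was at 1.25% ± 0.243 (SD, n = 10) in PyMT and 0.925% ± 0.310 (SD, n = 12) in FVB over its promoter (limma adjusted p = 0.132, exact permutation p within week = 0.00870). Its region of 71 positions around the TSS stood at 0.150 and 0.260%. Btc (betacellulin, a ligand of Egfr and Erbb4) had a promoter of 7 positions with a lowest, median and highest library of 0, 0.461 and 1.17% in PyMT and 0, 2.73 and 5.73% in FVB. The groups overlapped and the difference was -2.03 points (limma adjusted p = 0.00977). Its largest region, 10 intronic positions (chr5:91368261-91368321), was at 93.4% in PyMT and 93.8% in FVB.

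**Figure D4:**
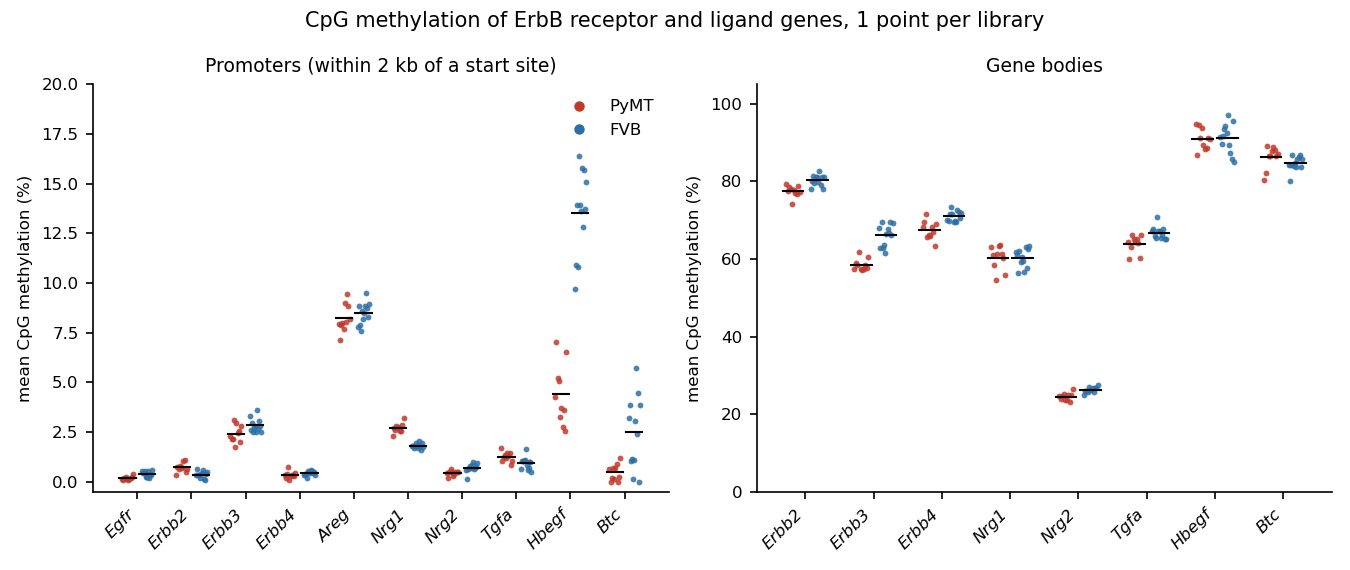
Points are libraries (PyMT red, FVB blue) and bars are means over the libraries of a strain. The vertical axes give the mean CpG methylation of the promoter (left, 10 genes, up to 20%) and of the gene body (right, 8 genes with at least 3 body positions, up to 100%), and the strains are apart in the promoters of Hbegf and, by 0.907 points, Nrg1.

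Ordered by promoter level in FVB, the genes were Hbegf (13.5%), Areg (8.48%), Erbb3 (2.84%), Btc (2.51%), Nrg1 (1.81%), Tgfa (0.925%), Nrg2 (0.693%), Erbb4 (0.438%), Egfr (0.390%) and Erbb2 (0.364%). The lowest Hbegf library (9.70%) was above the highest Areg library (9.48%), and the lowest Areg library (7.58%) was above all libraries of the genes that follow. From Erbb3 down, every gene overlapped with its neighbour in the order. In PyMT Hbegf (4.52%) came after Areg (8.19%), whose lowest library (7.14%) was above the highest Hbegf library (7.02%).

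No member region was called between the premalignant weeks (6 and 8) and the malignant weeks (10 and 12). With limma the count was 0 of 53 in PyMT (against 0.189% of all regions), 0 in FVB (against 0%) and 0 for the difference between the strains (against 0%). At an unadjusted limma p under 0.05 there were 6 regions in PyMT, 2 in FVB and 3 for the difference. The shares of all regions at this threshold were not counted, so these counts are descriptions only. On the percent scale 1 was called in PyMT, the Areg region above, with no call in the other comparisons.

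Read coverage relative to the library mean was compared as a rough measure of copy number at late carcinoma. None of the 10 loci was called by limma, against 0.0884% of all loci called higher, and 0 had an unadjusted p under 0.05. Erbb2 was higher by 0.11 ± 0.08 (SE) on the log2 scale. Its 2 PyMT libraries were at 0.08 and 0.15 and its 3 FVB libraries between -0.04 and 0.07 relative to the FVB mean. For Egfr the difference was 0.09 ± 0.09 (SE). The loci called were all on chromosome 11, where Erbb2 and Egfr also lie, and the nearest began at base 115162122, beyond both genes.

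Other genes of the pathway were listed by role. Of 29 such genes 27 had a testable promoter, of which 2 were higher and 1 lower in PyMT (against 3.83% and 6.30% of all promoters), and the median difference was -0.04 points (-0.23 over the 10 members and -0.0082 over all 16407 promoters). Shc1, an adaptor that links the receptors to Ras, rose from 3.36% ± 0.638 (SD, n = 12) to 9.75% ± 1.50 (SD, n = 10). The ligand gene Egf fell from 7.72% to 1.59%, and the ligand gene Ereg rose from 20.7% to 26.9% (limma adjusted p = 1.80e-08, 4.77e-06 and 0.00898 in this order). No promoter was called among 4 shedding proteases and rhomboid relatives, 7 downstream kinases and GTPases, and 6 inhibitors. Of 22 bodies of these genes 4 were higher and 8 lower, against 10.3% and 32.1% of all bodies, and of the 8 member bodies 0 were higher and 1 was lower.

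The promoters most like Hbegf across the 22 libraries, among 1948 with an SD of at least 5 points, were those of Lrrc3c (Pearson r = 0.987), Smim5 (0.978) and Sox10 (0.978). Within strains r was 0.865, 0.809 and 0.742 in PyMT and 0.947, 0.872 and 0.853 in FVB. The promoters most like Btc were those of Gm19424 (0.776), Mir6391 (0.772) and Krt23 (0.743), and r was 0.377, -0.0419 and -0.448 within PyMT and 0.651, 0.748 and 0.681 within FVB. Libraries share strain and depth, so these are descriptions.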

How the data were processed

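Per the labels, ERRBS was run on mammary DNA of single mice, and Bismark and mm10 were the authors' aligner and genome build. For each library the deposited files give the read count (coverage) at each CpG cytosine with at least 10 reads, strands apart and not normalized, and the percent of reads called methylated and unmethylated. Per the paper's methods, the authors removed 2 outlier samples, and their strain is not given there. The PyMT groups of hyperplasia and of late carcinoma hold 2 libraries each here. Groups came from the labels.

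Methylated reads were recovered as coverage times percent, rounded. Positions covered in all 22 libraries were annotated with curated RefSeq transcripts of GRCm38. Single positions were tested by the likelihood ratio of a logistic regression (difference of at least 10 points, q-value under 0.01). Region, promoter and body means (at least 3 positions) were given as the mean percent over positions and tested as log2 ratios of summed methylated to unmethylated reads, plus 1 each, with limma 3.58.1 in R 4.3.3 (trend, 8 groups, Benjamini-Hochberg over all features), and called at an adjusted p under 0.05 and 5 points. Differences are of group means in points, weeks weighted equally. The exact permutation test exchanged strain labels within week and used the mean percent, with p unadjusted unless stated. The logistic regression and limma were tried on simulated data, and the exact permutation test was not. The reads simulated for the logistic regression had no spread between mice, so they do not show its error with such a spread. Positions with low coverage are coarse: at 10 reads, 1 read is 10 points, which covers counting error only. Alternatives were the coverage minimum, summed strands, the percent scale, the gap, the promoter width, the minimum difference, overdispersion, a replicate block and left-out replicates.

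All 10 members are named. For each, up to 4 called regions with the largest difference over all weeks are given, or else the region with the most positions, plus any others described by their values. The likeness genes are the 3 highest correlations for the 2 member promoters with the largest difference. The members and gene lists were chosen with earlier results of these data known.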

Additional observations from a re-analysis of the deposited data

Results flagged for a closer look

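For each named region, promoter and body the libraries of a strain were pooled into premalignant weeks (6 and 8) and malignant weeks (10 and 12), and a library was noted when its gap to the nearest other was large for the range (Dixon's test at the 95% level). Of 136 such groups 4 held such a library, while chance gives about 1 in 20. In the Erbb4 region at chr1:68040057-68040101 the late carcinoma library of replicate 1 was at 54.1%, and the other 4 malignant PyMT libraries were at 73.9 to 76.6%. In the intronic Erbb2 region the hyperplasia library of replicate 1 was at 6.11%, against 10.9 to 12.1% in the other 4 premalignant PyMT libraries. The same library was the lowest for the Erbb2 promoter, which includes that region, at 0.325%. For the Nrg2 promoter the FVB library of week 6 replicate 2 was the lowest, at 0.136%.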

How the results depend on the processing

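With differences of at least 25 points the hyper-DMCs numbered 4, 8, 7 and 8 in the order of the stages, and the hypo-DMCs at adenoma/MIN 24. With the overdispersion correction they numbered 5, 8, 9 and 11, and the hypo-DMCs at hyperplasia and adenoma/MIN 13 and 15. Replicate numbers did not pair the mice (correlations of same-numbered deviations from -0.0757 to 0.0602), and a replicate block (Cochran-Mantel-Haenszel) gave 11 hyper-DMCs at hyperplasia. It moved the other counts by less than 1.5 times (28 hypo-DMCs at hyperplasia in place of 36, 37 at adenoma/MIN in place of 41, 38 at late carcinoma in place of 42, 18 hyper-DMCs at late carcinoma in place of 21, and 10 regions at early carcinoma in place of 11), and each named region, promoter and body kept its side of the threshold. Leaving out 1 replicate at a time gave 9 to 19 hyper-DMCs at hyperplasia, where 9 came without PyMT replicate 1, and 1 to 10 regions at hyperplasia. With a minimum of 10 points 3 regions were higher over all weeks, and with no minimum 8 were higher and 13 lower. On the percent scale 1 region was called between premalignant and malignant weeks in PyMT. With promoters of 500 bases on each side 0 were called, and the Hbegf difference was 0.031 points, because the changed CpGs lie outside that window. Of 250 recomputed counts 230 stayed within 1.5 times the reported value. The named regions kept their side of the threshold in 201 of 206 refits, the exceptions all being the Erbb4 region. Direction entered this count only for regions that were called. The Btc region, which was not called, ran from -0.659 to 0.041 points with replicates left out. With 2 or 3 mice a week, the spread within a stage is poorly known, and the cause of the other changes was not tested.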

Other observations

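Of 22 gene bodies tested in the pathway lists 4 were higher and 8 lower in PyMT. All 3 bodies tested of the other ErbB ligands were lower in PyMT, with Nrg3 at 69.9% ± 2.88 (SD, n = 10) against 81.8% ± 2.05 (SD, n = 12) in FVB (limma adjusted p = 3.32e-08), Egf at 64.7% against 72.7% and Nrg4 at 25.4% against 33.7%. Of the 5 inhibitor bodies tested 3 were lower. The phosphatase gene Dusp6, which switches off MAPK, was at 4.59% ± 2.81 (SD, n = 10) against 20.8% ± 3.72 (SD, n = 12) over 4 positions, Spry2 (an inhibitor of receptor tyrosine kinase signalling) at 12.0% against 24.5%, and Lrig1 at 51.9% against 61.9%. Of the 7 adaptor bodies Shc1, Grb2 and Grb7 were higher and Gab1 was lower. Of the 4 downstream bodies Hras was higher and had the largest rise of all 22, from 66.3% ± 6.94 (SD, n = 12) to 85.7% ± 4.84 (SD, n = 10). Of the 3 shedding bodies 1 was lower. Of all bodies 10.3% were called higher and 32.1% lower, and the part of cell composition was not tested.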
